A study of Mus musculus with 9 samples.

Results

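Type I interferon signalling in mouse bone marrow was described for 9 genes, taken as a list of symbols: the receptor chains *Ifnar1* and *Ifnar2*, the kinases *Jak1* and *Tyk2*, the signal transducers *Stat2* and *Irf9*, and the interferon regulatory factors *Irf1*, *Irf5*, and *Irf7*. All 9 were found among the 31053 genes of the count matrix. The matrix came from droplet single cell RNA sequencing (10x 3' v3.1 chemistry) of marrow flushed from both femurs, with red cells lysed, in 9 female mice aged 9 to 10 weeks. There were 3 New Zealand White (NZW) mice, 3 New Zealand Black (NZB) mice, and 3 mice of their F1 hybrid (NZBWF1), with 1 library per mouse. NZB and NZW are inbred strains, and NZBWF1 is the cross of both that develops a lupus-like disease. All mice came from the same supplier at the same time, and no treatment, transgene, or deletion was named for any group, so strain was the only difference the labels gave. The labels named no batch, and the study's methods mention batches without tying mice to them, so batches could not be compared. The study asked which genes differ in the marrow of the hybrid from that of its parents.

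Type I interferons bind a receptor made of IFNAR1 and IFNAR2. The kinase TYK2 sits on IFNAR1 and the kinase JAK1 on IFNAR2, and together they phosphorylate STAT2. STAT2 and IRF9 are parts of the complex ISGF3, which enters the nucleus and turns on interferon-stimulated genes by binding the interferon-stimulated response element in their promoters. The gamma-activated site is a different sequence, known from the response to interferon gamma, and *Irf1* is a well known gene driven through it. IRF7 and IRF5 act earlier, since they carry signals from nucleic acid sensors to the interferon genes themselves. Plasmacytoid dendritic cells (pDC) are known for making large amounts of type I interferon and for holding IRF7 before any stimulus.

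Both binding sequences were searched in the 250 bases before the start of each of the 9 genes, as GAAA, any 2 bases, and GAAA again for the response element and as TTC, any 3 bases, and GAA for the gamma-activated site, on both strands (RefSeq promoters, GRCm38.p6, the assembly that mm10 names). Only the response element is the sequence that ISGF3 binds, and 3 of the 9 genes held a match to either sequence. The *Stat2* window (chr10:128270248-128270497, plus strand) held a response element on the minus strand, 222 to 213 bases before the start. The *Irf1* window (chr11:53769764-53770013, plus strand) held a gamma-activated site 90 to 82 bases before the start, and the *Ifnar2* window (chr16:91372533-91372782, plus strand) held another 214 to 206 bases before the start. They are shown with the matching bases in capitals.
Stat2: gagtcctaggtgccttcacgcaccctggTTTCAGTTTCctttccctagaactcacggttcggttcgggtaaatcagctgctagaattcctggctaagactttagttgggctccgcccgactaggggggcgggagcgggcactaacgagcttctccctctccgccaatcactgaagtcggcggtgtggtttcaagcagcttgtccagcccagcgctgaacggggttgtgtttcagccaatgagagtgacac
Irf1: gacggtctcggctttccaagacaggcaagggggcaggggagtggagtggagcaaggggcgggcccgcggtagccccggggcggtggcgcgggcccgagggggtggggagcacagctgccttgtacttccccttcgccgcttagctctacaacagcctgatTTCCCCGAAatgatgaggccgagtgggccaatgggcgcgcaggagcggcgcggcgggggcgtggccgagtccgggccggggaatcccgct
Ifnar2: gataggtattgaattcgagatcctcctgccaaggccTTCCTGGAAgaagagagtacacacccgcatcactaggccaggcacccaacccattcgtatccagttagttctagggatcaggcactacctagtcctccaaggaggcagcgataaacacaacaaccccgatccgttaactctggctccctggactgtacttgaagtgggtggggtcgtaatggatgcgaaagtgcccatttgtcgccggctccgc
Of 27025 genes with such windows, 3.46% held the response element and 8.13% the gamma-activated site, and of all 32851 windows 2.98% and 7.02% did. *Irf1* and *Irf9* each had 2 windows, and the second of *Irf1* held neither sequence. The windows of *Irf5*, *Irf7*, *Irf9*, *Ifnar1*, *Jak1*, and *Tyk2* held neither sequence. A match is a description of the letters in the window and was not tested for binding.

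In the annotation matched to the gene identifiers (GENCODE vM21 on the same assembly), the receptor genes lie near each other, *Ifnar2* (ENSMUSG00000022971) at chr16:91372783-91405589 and *Ifnar1* (ENSMUSG00000022967) at chr16:91485238-91507441. *Jak1* (ENSMUSG00000028530) spans chr4:101152367-101265282 and *Tyk2* (ENSMUSG00000032175) chr9:21104068-21131243. *Stat2* (ENSMUSG00000040033) spans chr10:128270559-128292849 and *Irf9* (ENSMUSG00000002325) chr14:55603571-55610030. The other factors are *Irf1* (ENSMUSG00000018899, chr11:53770014-53778374), *Irf5* (ENSMUSG00000029771, chr6:29526625-29541871), and *Irf7* (ENSMUSG00000025498, chr7:141262706-141266481). Counts are per gene, from the 3' ends of transcripts, so exons and isoforms were not told apart.

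Cells were placed in 17 classes by marker genes, none of which is among the 9 genes, and 13 classes had at least 10 cells in enough mice for a test between strains. Of 68444 deposited barcodes, 39051 passed the quality limits and 33938 entered a class. In each class every marker of its own list was raised more than 2-fold over the other cells, except 1 of 8 in immature-neutrophil-like cells. The same markers placed the cells, so this rise is no independent check of the class names. In plasma-cell-like cells 1 of the 10 leading genes was a marker of the list and most others were immunoglobulin genes. The classes are called "-like" because no protein was measured. The summed counts of unique molecular identifiers (UMIs) per mouse ran from 7365615 to 15665534 in these cells, and 557 barcode sequences occurred in more than 1 library. Levels are given as a gene's count per 1000000 UMIs (CPM), from the UMIs summed per class and mouse, and they were not set against each other between genes.

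The receptor chains were both highest in pDC-like cells. In the 3 NZB, 3 NZW, and 3 NZBWF1 mice in turn, the *Ifnar1* level there was 203, 214, and 233, then 266, 296, and 290.2, then 301, 200.5, and 200.2 CPM, a mean of 245 ± 43.5 CPM (SD, n = 9 mice). Every mouse lay above its own level in the next class, T-cell-like cells (83.4 ± 34.8 CPM, 75 UMIs in all). NK-cell-like (74.9 CPM), monocyte-like (64.1 CPM), and mature-B-like cells (60.2 CPM) followed without differing from their neighbours. Further down, pro/pre-B-like cells (36.1 CPM) stood above promyelocyte-like cells (19.9 CPM), and *Ifnar1* was lowest in erythroid-like cells (11.4 ± 2.58 CPM). *Ifnar2*, the chain that carries JAK1, had 255, 247, and 266 CPM in pDC-like cells of NZB mice, 169, 245, and 204 CPM in those of NZW mice, and 259, 221, and 197 CPM in those of NZBWF1 mice. Its mean of 229 ± 33.3 CPM stood above monocyte-like cells (105 ± 11.6 CPM), which in turn stood above stem-and-progenitor-like cells (59.9 CPM). From there *Ifnar2* came down to 21.3 CPM in basophil/mast-like cells (7 UMIs in all) in small steps, none of which passed the test.

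Neighbours in the order of a gene's level were compared in the same mice (exact sign-flip permutation of the paired log2(CPM + 1), two-sided, adjusted over 108 pairs). Of these, 14 differed, each in 9 of 9 mice and each with an exact p = 0.00391, which is the smallest p that 9 mice allow, and an adjusted p of 0.0301. With any 1 mouse left out, whether of NZB, NZW, or NZBWF1, no pair passed after adjustment: the smallest p that 8 mice allow is 0.00781, and the smallest adjusted p ran from 0.0527 without NZW replicate 1 to 0.0649 without NZW replicate 3 or NZBWF1 replicate 3. All differences between neighbouring classes stated here rest on the full set of 9 mice. With the cells taken apart by depth, 7 pairs differed in those of at least 2000 UMIs and 1000 genes and 13 in the remaining cells, of which 4 and 5 were among the 14.

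**Figure D1:**
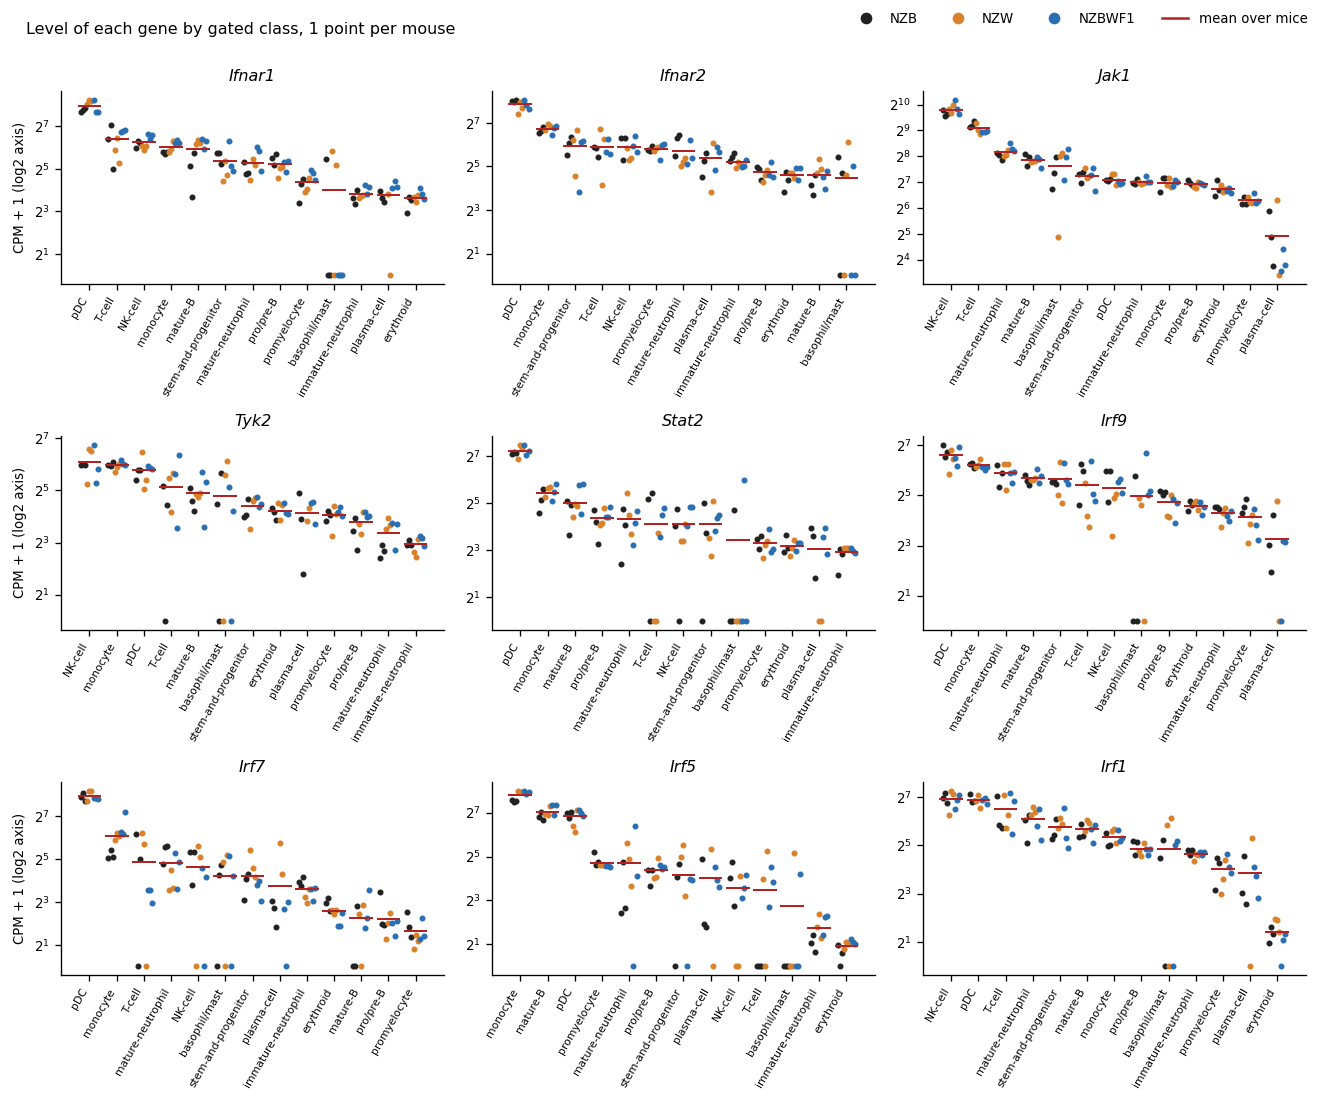
Level of each of the 9 genes (log2 of CPM + 1, vertical axis) in the 13 tested classes, ordered from highest to lowest mean. Each point is 1 mouse, coloured by strain, and the red line is the mean of the mice. *Ifnar1*, *Ifnar2*, *Stat2*, *Irf9*, and *Irf7* start with pDC-like cells, *Irf5* with monocyte-like cells, and *Jak1*, *Tyk2*, and *Irf1* with NK-cell-like cells.

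The kinases followed another order. *Jak1*, which serves many cytokine receptors besides IFNAR2, had 891, 759, and 800.1 CPM in NK-cell-like cells of NZB mice, 916, 818, and 1002 CPM in NZW mice, and 1169.5, 908, and 801 CPM in NZBWF1 mice. The mean was 896 ± 127 CPM, above T-cell-like cells with 542 ± 64.9 CPM, and those stood above mature-neutrophil-like cells (284 CPM). Erythroid-like cells (105 CPM) stood above promyelocyte-like cells (77.1 CPM), and the lowest *Jak1* level was in plasma-cell-like cells (28.8 CPM, 8 mice). *Tyk2*, the kinase on IFNAR1, had its highest means in NK-cell-like (67.7 ± 24.2 CPM, 80 UMIs in all), monocyte-like (61.8 ± 5.3 CPM), and pDC-like cells (53.6 ± 15.5 CPM), and these 3 classes did not differ as neighbours. In cells of at least 2000 UMIs and 1000 genes monocyte-like cells had the highest *Tyk2* mean, and over 6 alternative settings, this one included, its level in NK-cell-like cells ran from 31.3 to 96.9 CPM. Its level was 6.78 ± 1.35 CPM in immature-neutrophil-like cells, the lowest of the 13.

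*Stat2* and *Irf9* encode the parts of ISGF3 that are particular to it. *Stat2* in pDC-like cells ranged from 117 to 176 CPM over the 9 mice (mean 147 ± 19.4 CPM), and no mouse reached that range in monocyte-like cells, where the values ran from 22.6 to 55.3 CPM (mean 41.5 ± 10.6 CPM). Below monocyte-like cells no step in the order of *Stat2* passed the test, down to 6.66 ± 1.52 CPM in immature-neutrophil-like cells. *Irf9* had 95.8 ± 23.3 CPM in pDC-like and 72.1 ± 6.63 CPM in monocyte-like cells, with pDC-like cells higher in 8 of 9 mice, and this difference did not pass (exact sign-flip permutation, adjusted p = 0.141). No neighbouring classes differed for *Irf9* at all, down to 8.7 CPM in plasma-cell-like cells (24 UMIs in all). Its gene overlaps *Rnf31* on the same strand, and *Ifnar2* overlaps *Gm21970* on the same strand, so counts from the shared parts may be affected.

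*Irf7*, the factor that drives interferon production, had 235, 269.7, and 208 CPM in pDC-like cells of NZB mice, 204, 287, and 290.2 CPM in NZW mice, and 225, 226, and 219.9 CPM in NZBWF1 mice (mean 241 ± 33.1 CPM, 858 UMIs in all). Of the 13 tested classes monocyte-like cells came next with 66.1 ± 33.3 CPM, from 32.3 to 142 CPM over the mice. Conventional dendritic (cDC-like) and macrophage-like cells, too few for a test, had higher *Irf7* means than monocyte-like cells. From monocyte-like to immature-neutrophil-like cells (11.1 CPM) no tested neighbours differed for *Irf7*. Immature-neutrophil-like cells stood above erythroid-like cells (4.91 CPM). *Irf5*, which acts downstream of Toll-like receptors in myeloid cells and B cells, had its highest mean of the 13 tested classes in monocyte-like cells (225 ± 31.4 CPM), above mature-B-like (131 ± 23.4 CPM) and pDC-like cells (115 ± 24.5 CPM), which did not differ from each other, and pDC-like cells stood above promyelocyte-like cells (24.9 CPM). It was scarcest in immature-neutrophil-like (2.3 CPM) and erythroid-like cells (0.871 CPM, 16 UMIs in all), which differed. *Irf1*, a factor induced by interferon gamma, had similar means in NK-cell-like (119.5 ± 25.4 CPM) and pDC-like cells (115 ± 14.1 CPM), which traded places between mice, with NK-cell-like cells higher in 4 of 9, and with a wider margin of the gate pDC-like cells had the highest mean. *Irf1* also differed between immature-neutrophil-like (24.1 CPM) and promyelocyte-like cells (15.4 CPM), and was lowest in erythroid-like cells at 1.63 ± 0.909 CPM (34 UMIs in all). Genes on the opposite strand overlap *Irf1* (*Gm17334*), *Irf5* (*Tnpo3*), *Irf7* (*Phrf1*), *Jak1* (*Raver2*), and *Tyk2* (*1700084C06Rik*), and no source used here says whether the counting used strand.

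The share of cells with a UMI was taken after each cell was thinned to 1000 UMIs. A UMI of *Irf7* was found in 21.1 ± 3.65% of pDC-like cells (SD, n = 9 mice; 30.1% unthinned), in 5.85 ± 1.62% of monocyte-like cells (10.2% unthinned), and in 0.705 ± 0.572% of erythroid-like cells (4.62% unthinned). For *Ifnar1* the share was 22.1 ± 5.24% in pDC-like cells and 0.798 ± 0.763% in erythroid-like cells. *Stat2* was found in 14.7 ± 1.91% and 0.513 ± 0.578% of the same classes. Free RNA, estimated from barcodes under 100 UMIs, made up 0.100% to 1.18% of the UMIs of a class and mouse with at least 10 cells.

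For each gene those with the most similar order over the 13 classes were looked up among 9194 genes (Pearson correlation of the mean log2(CPM + 1), given as a description, since the classes share mice and libraries). *Ifnar1* was closest to *Zufsp* (r = 0.95), *Npc1*, and *Mef2a*, and *Ifnar2* to *St7l* (r = 0.87) and *Ctsb*. *Jak1* was closest to *Mob3a* (r = 0.92), *Prex1*, and *Arl2bp*, and *Tyk2* to *Sfxn3* (r = 0.89), *Ahr*, and *Bscl2*. *Stat2* was closest to *Plekhm3* (r = 0.94), *Dclre1c*, and *Zcchc24*, and *Irf9* to *Pip4k2a* (r = 0.95), *Fkbp15*, and *Taok1*. Among the factors, *Irf1* was closest to *Stat3* (r = 0.94), *Zdhhc20*, and *Ptprc*, *Irf5* to *Ly86* (r = 0.94), which is a marker of the monocyte list, *Pld4*, and *Gm15987*, and *Irf7* to *Clec9a* (r = 0.86), *Rnase4*, and *Klra17*. Within the pathway, *Ifnar1* and *Stat2* had r = 0.86, *Ifnar1* and *Ifnar2* r = 0.82, and *Stat2* and *Irf9* r = 0.81, while *Jak1* had r = 0.06 with *Ifnar2* and r = 0.11 with *Stat2*.

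Differences between strains were tested on the UMIs summed per class and mouse. Of the 117 pairs of a gene and a class, 73 passed the filter on low counts: *Jak1* in 13 classes, *Ifnar2* in 10, *Irf1* in 9, *Ifnar1*, *Irf9*, and *Tyk2* in 8 each, *Stat2* in 7, *Irf5* in 6, and *Irf7* in 4. Between NZB and NZW 3 of the 73 tests were called at an adjusted p under 0.05 (edgeR quasi-likelihood, adjusted over all genes of the class), and 9.06% of the 67795 tests on all genes were. NZBWF1 against NZB gave 4 calls of 73, with 3.97% over all genes. NZBWF1 against NZW gave 0, with 1.10% over all genes, and NZBWF1 against the mean of its parents gave 0, with 0.589%. At an unadjusted p under 0.05 those last comparisons had 2 and 5 tests, and DESeq2 called 0 and 1. These comparisons share mice, so their calls are not independent of each other. The median log2 fold change over the 73 tests was -0.03 between NZB and NZW (-0.01 over all genes) and 0.03 for NZBWF1 against NZB (0.01 over all genes). All calls lay in 2 classes, monocyte-like and immature-neutrophil-like cells, and *Jak1*, *Tyk2*, *Stat2*, *Irf9*, and *Irf1* had none. Calls over all genes were also frequent in these classes. Between NZB and NZW they held 2177 and 1074 of the 6141 calls over all genes. Between NZBWF1 and NZB they held 1442 and 363 of the 2692.

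**Figure D2:**
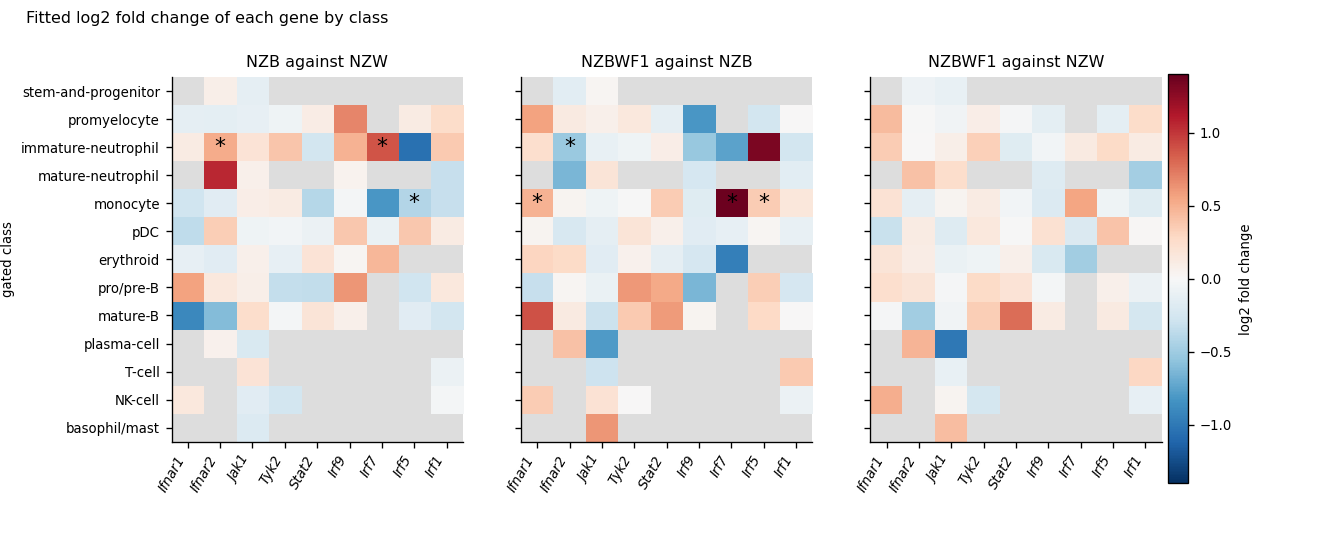
Log2 fold change (colour scale) of the 9 genes (columns) in the 13 tested classes (rows) for NZB against NZW, NZBWF1 against NZB, and NZBWF1 against NZW. An asterisk marks an adjusted p under 0.05 and grey marks pairs that did not pass the filter on low counts. The 3 asterisks between NZB and NZW and the 4 between NZBWF1 and NZB fall in monocyte-like and immature-neutrophil-like cells, and the panel of NZBWF1 against NZW has none.

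In monocyte-like cells *Irf7* was lowest in NZB. Its level was 32.3, 42.2, and 32.8 CPM in the NZB mice, 58.5, 72.9, and 66.4 CPM in the NZW mice, and 76.4, 70.6, and 142 CPM in the NZBWF1 mice (908 UMIs in all). The NZB mice did not overlap either other strain, the NZW and NZBWF1 mice overlapped, and NZBWF1 replicate 3 stood above the other NZBWF1 mice. *Irf7* rose in NZBWF1 against NZB by 1.37 on the log2 scale (SE 0.28, 2.58-fold, edgeR adjusted p = 0.00838), in a class where 16.1% of all genes were called. This call was lost without NZB replicate 1 (1.31, edgeR adjusted p = 0.0547), and without NZBWF1 replicate 3 the log2 fold change was 0.93. The log2 fold change of NZB against NZW was -0.82 (SE 0.29, edgeR adjusted p = 0.0675), and that of NZBWF1 against the mean of its parents was 0.96 (SE 0.23, edgeR adjusted p = 0.0714), so neither passed. DESeq2 called NZB against NZW (adjusted p = 0.00873), and so did edgeR without NZBWF1 replicate 2 (adjusted p = 0.00406) or NZBWF1 replicate 3 (0.000311). Against the mean of the parents DESeq2 also passed (adjusted p = 0.00107), as did edgeR without NZBWF1 replicate 2 (adjusted p = 0.000498), while without NZBWF1 replicate 3 the value was 0.52 (edgeR adjusted p = 0.103) and with the other mice left out the adjusted p reached 0.164.

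*Irf5* in monocyte-like cells had 191, 177, and 184 CPM in NZB, 254, 241, and 246 CPM in NZW, and 256, 231, and 241 CPM in NZBWF1 (3011 UMIs in all). Every NZB mouse was below every mouse of the other strains, and NZW and NZBWF1 covered the same range. *Irf5* fell by 0.41 on the log2 scale in NZB against NZW (SE 0.10, edgeR adjusted p = 0.00173; 24.3% of all genes were called in this class), and with each of the 9 mice left out in turn it stayed called (edgeR adjusted p from 0.00158 to 0.0166). It rose in NZBWF1 against NZB by 0.36 (SE 0.10, 1.28-fold, edgeR adjusted p = 0.0121), and this call was lost without NZB replicate 2 (0.34, edgeR adjusted p = 0.0692).

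*Ifnar1* was the only receptor chain called in monocyte-like cells. Its levels were 55, 50.3, and 54.3 CPM in NZB, 54.1, 59.6, and 78.7 CPM in NZW, and 71.9, 80.3, and 72.5 CPM in NZBWF1 (869 UMIs in all). NZBWF1 lay above NZB in all mice, while NZW reached into both ranges. *Ifnar1* rose in NZBWF1 against NZB by 0.48 (SE 0.15, 1.4-fold, edgeR adjusted p = 0.0254). The call was lost without NZB replicate 2 (0.45, edgeR adjusted p = 0.132), NZB replicate 3 (0.48, 0.059), NZBWF1 replicate 2 (0.41, 0.163), or NZBWF1 replicate 3 (0.52, 0.0505), and with DESeq2 (0.47, adjusted p = 0.134). *Ifnar2*, with a mean of 99.6 CPM in NZB, 112 CPM in NZW, and 102 CPM in NZBWF1, passed in no comparison of this class, and neither did *Stat2*, with 34.7, 45.8, and 44 CPM in the same order.

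The kinases and the remaining factors had close strain means in monocyte-like cells and no call. *Jak1* had 127 ± 26, 123 ± 15.5, and 126 ± 9.39 CPM in NZB, NZW, and NZBWF1 (SD, n = 3 mice each), and *Tyk2* had 62.7 ± 3.3, 57.7 ± 6.1, and 65 ± 4.76 CPM. *Irf9* had 73.1 ± 6.03, 75.6 ± 9.09, and 67.7 ± 2.96 CPM, and *Irf1* 35.2 ± 7.83, 43.7 ± 9.12, and 40.5 ± 6.55 CPM. The ranges of the strains overlapped for each of these 4 genes.

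**Figure D3:**
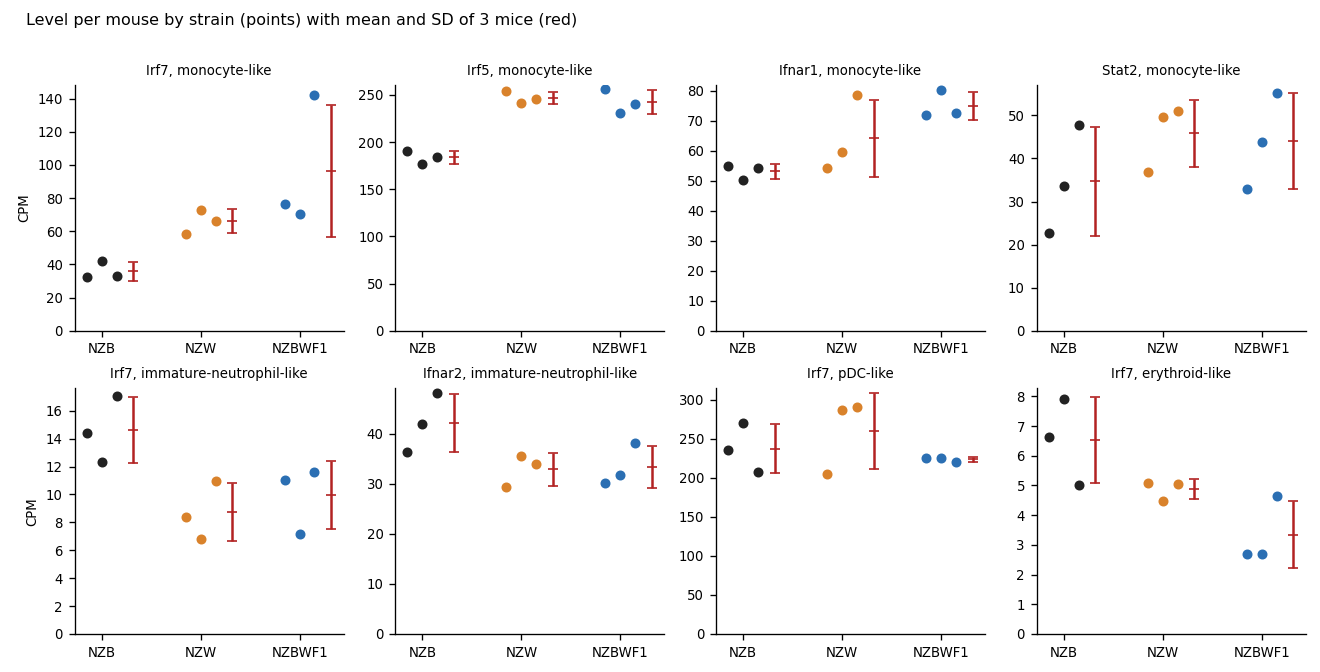
Level (CPM, vertical axis) of *Irf7*, *Irf5*, *Ifnar1*, and *Stat2* in monocyte-like cells, *Irf7* and *Ifnar2* in immature-neutrophil-like cells, and *Irf7* in pDC-like and erythroid-like cells, by strain. Points are mice, lines and bars are the mean and SD of 3 mice. *Irf7* and *Irf5* are lowest in NZB in monocyte-like cells, whereas *Irf7* and *Ifnar2* have their highest means in NZB in immature-neutrophil-like cells.

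In immature-neutrophil-like cells the strains stood in another order. *Irf7* was scarce there, with 14.4, 12.3, and 17.1 CPM in NZB, 8.41, 6.82, and 11 CPM in NZW, and 11.1, 7.14, and 11.6 CPM in NZBWF1 (378 UMIs in all). The NZB mice were above all others, and NZW overlapped NZBWF1. *Irf7* rose in NZB against NZW by 0.88 (SE 0.22, 1.84-fold, edgeR adjusted p = 0.0126; 12.3% of all genes were called in this class), and the call was lost without NZB replicate 3 (0.79, edgeR adjusted p = 0.0643) or NZW replicate 2 (0.73, 0.0723). The difference of NZBWF1 from NZB was -0.75 on the log2 scale and did not pass (edgeR adjusted p = 0.0661).

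*Ifnar2* in immature-neutrophil-like cells had 36.4, 42.1, and 48.1 CPM in NZB, 29.3, 35.7, and 34 CPM in NZW, and 30.2, 31.8, and 38.1 CPM in NZBWF1 (1261 UMIs in all). NZB lay above NZW in every mouse, and NZBWF1 replicate 3 lay above the lowest NZB mouse. *Ifnar2* rose in NZB against NZW by 0.52 (SE 0.13, 1.44-fold, edgeR adjusted p = 0.0113) and fell in NZBWF1 against NZB by 0.52 on the log2 scale (SE 0.13, edgeR adjusted p = 0.0308; 4.15% of all genes were called). The call of NZB against NZW was lost without NZB replicate 3 (0.46, edgeR adjusted p = 0.0623). That of NZBWF1 against NZB was lost without NZB replicate 3 (-0.46, edgeR adjusted p = 0.121), NZBWF1 replicate 1 (-0.46, 0.0584), NZBWF1 replicate 2 (-0.49, 0.117), or NZW replicate 3 (-0.52, 0.0509), and with DESeq2 (-0.54, adjusted p = 0.0523). *Irf9* also had its highest mean in NZB, with 21.9, 17.5, and 17.2 CPM in NZB, NZW, and NZBWF1, and did not pass (NZB against NZW 0.49, edgeR adjusted p = 0.0818).

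Marker lists of other cell types also moved with strain in immature-neutrophil-like cells. The 8 T cell markers summed to 9.74 to 12.6 CPM in NZB, 136 to 218.5 CPM in NZW, and 97.8 to 127 CPM in NZBWF1, with 1 of the 8 called between NZB and NZW. The 10 markers of pro-B and pre-B cells (3 called) summed to 19.9 to 43.5 CPM, 112.5 to 174 CPM, and 58.7 to 196 CPM. The 9 NK cell markers (2 called) summed to 45.1 to 54 CPM, 21.3 to 36.7 CPM, and 32.9 to 44 CPM. The 8 basophil or mast cell markers (1 called) summed to 190 to 218, 137 to 155, and 149 to 210 CPM in the same order. The 6 plasma cell markers (2 called) summed to 49 to 53.2, 79.2 to 84.4, and 61.7 to 89.9 CPM. The 9 macrophage markers summed to 106 to 132, 136 to 153, and 163 to 181 CPM, and the 8 mature B cell markers to 11.2 to 24.4, 27.5 to 72.4, and 20.8 to 59.1 CPM. The 8 markers of the class itself (2 called, 1 at 0 in every mouse) summed to 142422 to 161942, 137097 to 142965, and 138015 to 156425 CPM. The 6 promyelocyte markers (2 called) summed to 919 to 1585, 742 to 1046, and 1031 to 1121 CPM. The 8 mature neutrophil markers (2 called) summed to 4306 to 8118, 3079 to 5199, and 3725 to 7872.5 CPM. No other gene of these lists was at 0 in every mouse, and the part of the lists in the *Irf7* and *Ifnar2* results was not tested.

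In pDC-like cells, where 5 of the 9 genes had their highest mean (*Irf9* among them, whose mean was highest in monocyte-like cells without dividing cells and in stem-and-progenitor-like cells in the cells under 2000 UMIs or 1000 genes alone), no strain difference of the 9 genes was called (7.49% of all genes were called between NZB and NZW, and 2.53% between NZBWF1 and NZB). The smallest p between NZB and NZW was that of *Ifnar1*, with means of 217 ± 15 CPM and 284 ± 16.3 CPM (SD, n = 3 mice each) and a log2 fold change of -0.35 (SE 0.15, edgeR adjusted p = 0.178). *Ifnar2* leaned the other way, with 256 ± 9.58 CPM in NZB and 206 ± 38.4 CPM in NZW (0.35, SE 0.16, edgeR adjusted p = 0.215). *Irf7* had means of 238, 260.5, and 224 CPM in NZB, NZW, and NZBWF1, with wide overlap of the mice. The sum of 6 markers of dividing cells in these cells was 277 to 563 CPM in NZB, 822 to 1823 CPM in NZW, and 269.6 to 545 CPM in NZBWF1. A refit without cells that had a UMI of these markers included pDC-like cells, and its strain values for these genes are not given here.

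NZBWF1 stood between its parents in 28 of the 73 pairs of a gene and a class (38.4%, and 43.3% over all genes), and above both in 30 (41.1%, and 35.3% over all genes). The mice of NZB and NZW did not overlap in 13 pairs (17.8%, and 26.2% over all genes), those of NZBWF1 and NZB in 16 (21.9%, and 19.6%), and those of NZBWF1 and NZW in 3 (4.11%, and 14.5%).

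Whether a strain difference in a class departed from that in monocyte-like cells was tested with both classes in the same fit. The filter on low counts took both classes together, so a gene could enter through its counts in monocyte-like cells alone. *Irf7*, which passed the filter in 4 classes by itself, was thus tested in every class. Tests of the same gene share its values in monocyte-like cells, so their calls are not independent of each other. Between NZB and NZW 5 of 108 tests were called (3.67% of the 100625 tests on all genes), and all 5 were positive, so NZB stood higher against NZW there than in monocyte-like cells. They were *Irf7* in immature-neutrophil-like (difference of the log2 fold changes 1.69, SE 0.27, edgeR adjusted p = 5.6e-05), pDC-like (0.79, SE 0.23, 0.0134), and erythroid-like cells (1.29, SE 0.39, 0.013), *Irf5* in pDC-like cells (0.82, SE 0.24, 0.0155), and *Ifnar2* in immature-neutrophil-like cells (0.69, SE 0.16, 0.00455). For NZBWF1 against the mean of its parents 3 of 108 were called (0.113% over all genes), all for *Irf7* and all negative. They were immature-neutrophil-like (-1.29, SE 0.23, edgeR adjusted p = 0.00709), pDC-like (-1.15, SE 0.18, 1.19e-05), and erythroid-like cells (-1.67, SE 0.38, 0.014). The last class held 92 UMIs of *Irf7* over the 9 mice.

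With 1 mouse left out at a time, *Irf7* and *Ifnar2* in immature-neutrophil-like cells kept their calls between NZB and NZW in all 9 fits. *Irf7* in pDC-like cells lost its call without NZB replicate 2 (0.84, edgeR adjusted p = 0.0534), and *Irf7* in erythroid-like cells without NZB replicate 2 (1.24, 0.146) or NZW replicate 2 (1.18, 0.0748). *Irf5* in pDC-like cells lost its call without NZB replicate 3 (0.76, edgeR adjusted p = 0.0518), NZW replicate 1 (0.71, 0.0922), or NZW replicate 2 (0.65, 0.142). Of NZBWF1 against the mean of its parents, *Irf7* in pDC-like cells lost its call without NZBWF1 replicate 3 (-0.68, edgeR adjusted p = 0.399). In immature-neutrophil-like cells it was lost without NZBWF1 replicate 2 (-1.31, edgeR adjusted p = 0.0694), NZBWF1 replicate 3 (-1.03, 0.349), or NZW replicate 3 (-1.20, 0.0547), and in erythroid-like cells without NZB replicate 2 (-1.64, 0.121), NZBWF1 replicate 2 (-1.74, 0.129), or NZBWF1 replicate 3 (-1.60, 0.19). DESeq2 called 0 of these last 3, and none of the 8 passed in cells of at least 2000 UMIs and 1000 genes.

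The depth of the cells differed by strain in monocyte-like cells. The median UMIs per cell were 2843.5 to 3450 in the NZB mice, 1688.5 to 2278 in the NZW mice, and 1762 to 2489 in the NZBWF1 mice. The levels were therefore taken apart at 2000 UMIs and 1000 genes per cell. In the deeper cells *Irf7* had 31.7, 38.1, and 28.3 CPM in NZB, 37.4, 22.3, and 34.5 CPM in NZW, and 69.6, 24.7, and 77.7 CPM in NZBWF1, with all strains overlapping. In the shallower cells it had 45.9, 73.9, and 69.4 CPM in NZB, 129.6, 141, and 139.9 CPM in NZW, and 119, 125, and 274 CPM in NZBWF1, with NZB below the rest in every mouse. In the deeper cells the log2 fold change of NZBWF1 against NZB was 0.69 (edgeR adjusted p = 0.355) and that of NZB against NZW was 0.10 (0.918). In the shallower cells they were 1.41 (edgeR adjusted p = 0.031) and -1.03 (0.0933).

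**Figure D4:**
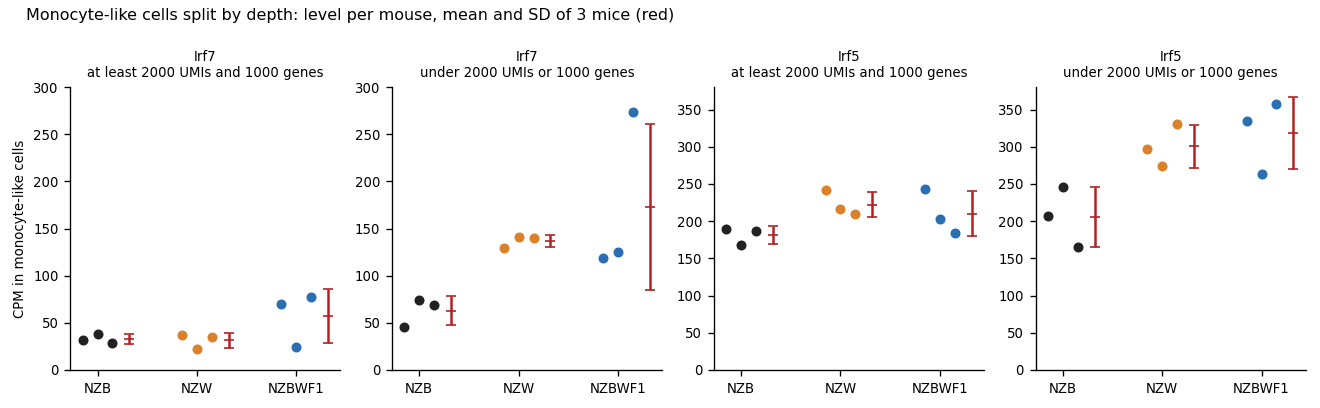
Level of *Irf7* and *Irf5* (CPM, vertical axis) in monocyte-like cells with at least 2000 UMIs and 1000 genes and in those below either limit, by strain. Each point is 1 mouse, and the red bars give the mean and SD of 3 mice. In the shallower cells *Irf7* reaches at most 73.9 CPM in an NZB mouse and at least 119 CPM in every other mouse, and in the deeper cells the strains overlap.

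For *Irf5* the deeper cells had 190.1, 168, and 187 CPM in NZB, 241, 217, and 209 CPM in NZW, and 244, 203, and 184 CPM in NZBWF1, and NZB stayed below NZW in every mouse (-0.29, edgeR adjusted p = 0.108). None of the 7 calls passed in the deeper cells. Of the 6 that were still tested there, all kept their direction, and *Irf7* of immature-neutrophil-like cells did not pass the filter, with 5.49, 5.58, and 9.42 CPM in NZB and 5.93, 4.3, and 5.41 CPM in NZW. In the shallower cells 2 of the 7 passed, *Irf7* in monocyte-like cells for NZBWF1 against NZB and *Ifnar2* in immature-neutrophil-like cells for NZB against NZW (0.61, edgeR adjusted p = 0.0253). The fits on either part also hold fewer cells, and the effect of depth and that of cell number on the calls cannot be told apart.

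Other marker lists also moved with strain in monocyte-like cells. The 6 markers of dividing cells summed to 2423 to 3344 CPM in NZB, 1924 to 2078 CPM in NZW, and 1713 to 2050.1 CPM in NZBWF1, and the 6 markers of promyelocytes to 1858 to 2788, 1303 to 1643, and 1164 to 1591 CPM. The 9 macrophage markers summed to 32.8 to 83.0 CPM in NZB, 38.3 to 54.6 CPM in NZW, and 95.8 to 127 CPM in NZBWF1, with *C1qa* at 6.2 to 11.2, 1.7 to 4.6, and 15.4 to 28.6 CPM. The 7 markers of conventional dendritic cells summed to 38 to 41.2 CPM in NZB, 55.6 to 121.6 CPM in NZW, and 49.5 to 80.3 CPM in NZBWF1. The 8 markers of the class itself summed to 5989 to 7339, 7444 to 7848, and 6974 to 7740.2 CPM, and 5 of them were called between NZB and NZW. The 8 immature neutrophil markers, of which 4 were called and 1 was at 0 in every mouse, summed to 390.3 to 656 CPM in NZB, 307 to 333 CPM in NZW, and 267 to 382 CPM in NZBWF1. Lists of the B lineage were lower in NZB than in NZW in every mouse: the 10 markers of pro-B and pre-B cells summed to 23.7 to 44 CPM in NZB, 94.1 to 120.6 CPM in NZW, and 33 to 142 CPM in NZBWF1, the 8 mature B cell markers to 15.1 to 24.4, 41.9 to 57.9, and 34.5 to 55.1 CPM, and the 6 plasma cell markers to 122 to 159.5, 186 to 237, and 179.8 to 195 CPM. The NK and T cell lists overlapped between NZB and NZW. The 9 NK cell markers, 1 of them at 0 in every mouse, summed to 1.87 to 19.9, 4.33 to 32.2, and 22.9 to 46.9 CPM in NZB, NZW, and NZBWF1. The 8 T cell markers summed to 0 to 3.32, 2.04 to 5.77, and 3 to 14 CPM. The 5 nonclassical monocyte markers, 1 of them called between NZB and NZW, summed to 13.3 to 35.6, 29.6 to 56.8, and 46.3 to 64.4 CPM. The other genes of these lists were each found in at least 1 mouse, and the part of the lists other than that of dividing cells in the results was not tested. In cells without a UMI of the dividing markers *Irf7* kept its call in NZBWF1 against NZB (1.61, edgeR adjusted p = 0.00742) and *Irf5* its call in NZB against NZW (-0.51, 0.0182), while *Ifnar1* (0.25, 0.613) and *Irf5* of NZBWF1 against NZB (0.43, 0.0974) did not pass. The 7 pDC markers summed to at most 75.1 CPM in monocyte-like cells of any mouse. The *Irf7* that pDC RNA would add, scaled by *Siglech*, was at most 1.08 CPM there and 0.639 CPM in immature-neutrophil-like cells. No such estimate was made for conventional dendritic cells or macrophages. After thinning, *Irf7* was found in 20.8% of cDC-like, 16.4% of macrophage-like, and 5.85% of monocyte-like cells. In monocyte-like cells the conventional dendritic list was lowest in NZB and the macrophage list highest in NZBWF1. The part of such cells in the *Irf7* results was not tested.

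The share of cells with an *Irf7* UMI followed the levels. After thinning to 1000 UMIs it was 4.12% in monocyte-like cells of NZB, 6.33% in those of NZW, and 7.10% in those of NZBWF1 (means of 3 mice; 9.95%, 9.14%, and 11.6% unthinned). In immature-neutrophil-like cells it was 1.80%, 0.956%, and 1.16% in the same order (4.04%, 2.23%, and 2.69% unthinned). In pro/pre-B-like cells, where *Irf7* had 3.63 CPM, the thinned share was 0.196%, 0.438%, and 0.274%.

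The genes that ISGF3 turns on were counted from a list of 39. In monocyte-like cells 36 of them were tested, and 1 was higher and 21 were lower in NZB than in NZW, with a median log2 fold change of -0.77 (-0.01 over all genes of the class, of which 24.3% were called). Without NZW replicate 2 the count of lower genes was 14. In NZBWF1 against NZB 20 were higher and 0 lower (median 0.77, and 0.00 over all genes, of which 16.1% were called), with 15 to 21 higher when 1 mouse was left out. In NZBWF1 against NZW 0 of 36 passed (median 0.07, 3 at an unadjusted p under 0.05, and 0 with DESeq2), where 1.10% of the tests on all genes were called over all classes. Against the mean of its parents NZBWF1 had 9 higher and 0 lower (median 0.36, with 0.589% of the tests on all genes called over all classes), and this count was 3 without NZBWF1 replicate 2, 5 without NZB replicate 2, 6 without NZBWF1 replicate 3, and 1 in the cells of at least 2000 UMIs and 1000 genes and in the remaining cells alike. For NZBWF1 against NZW and against the mean of its parents, the share in monocyte-like cells alone is not given here. In the comparisons with both shares given, that of monocyte-like cells was higher than that over all classes. In cells of at least 2000 UMIs and 1000 genes 3 of 32 target genes were higher and 5 lower in NZB than in NZW (median -0.19), and 4 were higher in NZBWF1 than in NZB (median 0.18). The share called and the median over all genes in these deeper cells are not given here.

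**Figure D5:**
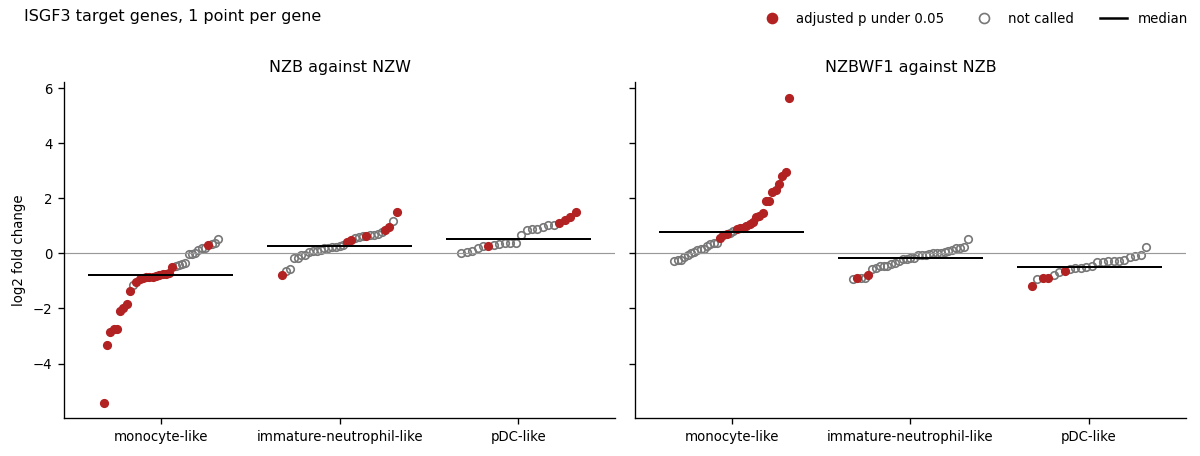
Log2 fold change (vertical axis) of the tested genes of the ISGF3 target list in monocyte-like, immature-neutrophil-like, and pDC-like cells for NZB against NZW and NZBWF1 against NZB. Each point is a gene, filled where its adjusted p was under 0.05, and the lines mark the medians. The median is -0.77 in monocyte-like and 0.53 in pDC-like cells for NZB against NZW, and 0.77 and -0.49 for NZBWF1 against NZB.

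In pDC-like and immature-neutrophil-like cells more target genes were called higher than lower in NZB against NZW. In pDC-like cells 5 of 22 target genes were higher and 0 lower in NZB than in NZW (median 0.53, with 7.49% of all genes called), and 4 were lower and 0 higher in NZBWF1 than in NZB (median -0.49, 2.53% of all genes). Between NZB and NZW the 5 became 3 without NZB replicate 2 or NZW replicate 3 and 8 without NZW replicate 2 or NZBWF1 replicate 1, and between NZBWF1 and NZB the 4 became 2 without NZB replicate 1 or NZBWF1 replicate 1, 1 without NZB replicate 2, and 0 without NZBWF1 replicate 2. The 7 pDC markers themselves summed to 5709 to 6438 CPM in NZB, 3942 to 4342 CPM in NZW, and 5008 to 5107 CPM in NZBWF1, and 6 of them were called between NZB and NZW. The 6 plasma cell markers summed to 273.5 to 339.5 CPM, 524.5 to 671 CPM, and 474 to 658 CPM in the same cells, and the part of either list in these counts was not tested. In immature-neutrophil-like cells 6 of 31 were higher and 1 lower in NZB than in NZW (median 0.27, with 12.3% of all genes called), and the 6 became 3 without NZW replicate 3. In NZBWF1 against NZB 2 of 31 were lower (median -0.17), near the 4.15% over all genes, and 0 were without NZB replicate 3 or NZBWF1 replicate 2. When the effect was set against that in monocyte-like cells, 13 of 33 target genes differed in pDC-like cells and 13 of 36 in immature-neutrophil-like cells, all of them positive for NZB against NZW (3.67% of the tests on all genes over all classes). The share for either class alone is not given here.

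*Isg15*, which encodes a ubiquitin-like protein made after interferon, was called in 3 classes both between NZB and NZW and between NZBWF1 and NZB. Its level in monocyte-like cells was 28, 30.9, and 13.1 CPM in NZB, 45.5, 57.3, and 52.6 CPM in NZW, and 61.4, 59.2, and 71.8 CPM in NZBWF1. In pDC-like cells it was 86.2, 116, and 60.1 CPM in NZB, 35.7, 46.3, and 25.5 CPM in NZW, and 76.4, 25.3, and 52.5 CPM in NZBWF1. NZB was thus lowest in monocyte-like cells (-1.03 against NZW, SE 0.20, edgeR adjusted p = 0.000232) and highest against NZW in pDC-like (1.33, SE 0.34, 0.00666) and immature-neutrophil-like cells (0.64, SE 0.20, 0.0419). NZBWF1 against NZB gave 1.31 in monocyte-like, -0.90 in pDC-like, and -0.78 in immature-neutrophil-like cells.

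The other target genes called in at least 3 classes were *Psmb8*, *Bst2*, and *Uba7*. *Psmb8*, a subunit of the immunoproteasome, rose in NZB against NZW in 4 classes, by 1.12 in pDC-like, 0.90 in erythroid-like, 0.43 in immature-neutrophil-like, and 0.29 in monocyte-like cells. *Bst2*, which encodes tetherin, rose in pDC-like cells (0.28) and fell by 0.77 in monocyte-like, by 0.50 in promyelocyte-like, and by 1.45 in plasma-cell-like cells. *Uba7*, the enzyme that activates ISG15, fell in 3 classes, by 2.31 in mature-B-like, 1.28 in promyelocyte-like, and 0.87 in monocyte-like cells. Over all classes the target list had 15 higher and 26 lower calls in 206 tests between NZB and NZW (9.06% over all genes), and these 41 calls became 27 without NZW replicate 3 and 15 both in the cells of at least 2000 UMIs and 1000 genes and in the remaining, shallower cells.

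The remaining genes of the pathway, a list of 28 other STATs, JAKs, IRFs, receptors, and inhibitors of which 26 were tested, gave 10 higher and 9 lower calls in 203 tests between NZB and NZW, where 9.06% of the tests on all genes were called. NZBWF1 against NZB gave 4 and 5 (3.97% over all genes), and these 9 calls became 3 when NZB replicate 2 was left out, 4 when NZBWF1 replicate 2 was, and 5 when replicate 3 of either strain was. NZBWF1 against NZW gave 0 and 0 (18 at an unadjusted p under 0.05, and 0 with DESeq2), and NZBWF1 against the mean of its parents 0 and 1. *Irf8*, a factor needed for monocyte and dendritic cell development, was the only one called in at least 3 classes. It had 397, 253, and 413 CPM in promyelocyte-like cells of NZB and 428, 480.3, and 647 CPM in those of NZW, without overlap. In NZB against NZW *Irf8* fell by 0.68 in promyelocyte-like (SE 0.16, edgeR adjusted p = 0.00698), by 0.71 in monocyte-like, and by 0.62 in mature-B-like cells.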

How the data were processed

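Femur marrow of 9 mice was sequenced as 3' single cell libraries, and per the labels and the study's methods the authors made the deposited UMI counts with Cell Ranger and the mm10 genome and combined all 9 libraries in a single matrix, with no word on whether this step equalised their depth. The counts are whole numbers per gene and barcode and were used as deposited, and each barcode was tied to its mouse by its library suffix. The authors' deposited barcodes were kept here where they held 1000 UMIs and 500 genes or more, and where 13 mitochondrial genes took no more than 10% of UMIs. A cell entered the class with the highest marker score where the score reached 0.3 of the mean of the 100 highest cells and at least 3 markers had a UMI. Cells that passed for 2 unrelated classes (2809, 7.19%), which may be doublets, were removed, no other doublet caller was run, and 2304 cells (5.90%) had no class.

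UMIs were summed per class and mouse, a mouse entered a class only with 10 cells or more (8 of 9 mice in plasma-cell-like cells), and nonclassical-monocyte-like, cDC-like, macrophage-like, and megakaryocyte-like cells were not tested. Strains were compared with edgeR 4.0.16 in R 4.3.3 (filterByExpr, TMM, robust quasi-likelihood F test, all 9 mice in 1 fit per class, Benjamini-Hochberg over all genes of the class, threshold 0.05). Interaction tests fitted a class together with monocyte-like cells, held the mouse as a term, and filtered low counts over both classes together. Neighbouring classes were compared with a pseudocount of 1. On simulated counts with 200 genes changed 2-fold for NZBWF1 against the mean of its parents, 173 were recovered in monocyte-like cells (8815 genes), 156 in immature-neutrophil-like cells (8604 genes), and 131 in pDC-like cells (6170 genes). The interaction test recovered fewer of 200 changed genes, 78 in immature-neutrophil-like and 62 in pDC-like cells. Alternatives were DESeq2 1.42.0, no filter, other cell limits and gates, the replicate number as a block, and leaving out each mouse.

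All 9 genes were described, and genes of the 2 further lists were named where called in at least 3 classes of a comparison. For each of the 9 genes the 3 closest in their order over the classes were looked up, and 1 of these is not reported here. The members and lists were chosen with earlier results of these data known. Counting error limits the precision of low levels.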

Additional observations from a re-analysis of the deposited data

Results flagged for a closer look

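The strain effect in 3 classes departed from that in monocyte-like cells for 3 of the 9 genes, by a test of the difference itself (edgeR interaction with mouse as a term). Of such tests on all genes, 3.67% were called between NZB and NZW and 0.113% for NZBWF1 against the mean of its parents. Between NZB and NZW the log2 fold change of *Irf7* was 0.88 in immature-neutrophil-like and -0.82 in monocyte-like cells, and the fitted difference was 1.69 (edgeR adjusted p = 5.6e-05). For *Ifnar2* in immature-neutrophil-like cells the difference was 0.69 (edgeR adjusted p = 0.00455). These values ran from 1.46 to 2.07 and from 0.67 to 0.73 with each mouse left out in turn, and all 18 fits passed. In cells of at least 2000 UMIs and 1000 genes the differences were 0.37 and 0.33, and neither passed (edgeR adjusted p = 0.804 and 0.536). The other differences between NZB and NZW were 0.79 for *Irf7* in pDC-like cells, 1.29 for *Irf7* in erythroid-like cells, and 0.82 for *Irf5* in pDC-like cells. In the deeper cells these were -0.18, 0.27, and 0.90, none of which passed (edgeR adjusted p = 0.974, 0.804, and 0.485), and each lost its call with at least 1 mouse left out (highest edgeR adjusted p 0.0534, 0.146, and 0.142).

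For NZBWF1 against the mean of its parents the difference for *Irf7* was -1.29 in immature-neutrophil-like, -1.15 in pDC-like, and -1.67 in erythroid-like cells. All 3 are set against the same monocyte-like cells. Without NZBWF1 replicate 3, which had 142 CPM there, the values were -1.03, -0.68, and -1.60, and none passed (edgeR adjusted p = 0.349, 0.399, and 0.19). The calls in immature-neutrophil-like and erythroid-like cells were also lost without NZBWF1 replicate 2 (edgeR adjusted p = 0.0694 and 0.129), and without NZW replicate 3 (0.0547) and NZB replicate 2 (0.121) respectively.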

How the results depend on the processing

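The 3 calls between NZB and NZW became 0 with cells of at least 2000 UMIs and 1000 genes and 5 without cells that had a UMI of a dividing marker. The 4 calls between NZBWF1 and NZB became 0 in the deeper cells, 1 in the shallower cells, and 2 with DESeq2. NZBWF1 against NZW went from 0 to 1 in the shallower cells and with no filter on low counts. NZBWF1 against the mean of its parents went from 0 to 1 with DESeq2, no filter, no dividing cells, or cells of 2 unrelated classes kept. The 5 interaction calls between NZB and NZW became 0 in the deeper cells, 2 in the shallower cells, 2 with DESeq2, and 3 without dividing cells, and the 3 against the mean of the parents became 0, 1, 0, and 2 in the same order. The 14 differing neighbours became 7 in the deeper cells (4 of them among the 14) and 0 without dividing cells, and of 13 in the shallower cells 5 were among the 14. Without dividing cells the smallest adjusted p was 0.0502 (exact sign-flip permutation). There 22 pairs had an unadjusted p under 0.05, against 29 in the main comparison. With 1 mouse left out the counts ran from 2 to 4 (NZB and NZW), 2 to 4 (NZBWF1 and NZB), 0 to 0 (NZBWF1 and NZW), 0 to 1 (mean of the parents), 3 to 7 and 0 to 3 (interactions), and 0 to 0 (neighbours). In the deeper cells *Irf7* reversed between NZB and NZW in monocyte-like cells (0.10), as did its difference in pDC-like cells (-0.18). The cause of these changes was not tested.

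Replicate numbers were not taken as pairs, since not every same-numbered pair correlated above 0.1: values ran from -0.05 to 0.05 in monocyte-like cells, where 1 of 9 mice correlated best with its own number, and from 0.21 to 0.26 for replicates 1 and 2 but -0.03 to 0.03 for replicate 3 in immature-neutrophil-like cells, where 7 of 9 did. Median UMIs per monocyte-like cell were highest in replicate 1 and lowest in replicate 2 of every strain. For these replicates they were 3450 and 2843.5 in NZB, 2278 and 1688.5 in NZW, and 2489 and 1762 in NZBWF1. Promyelocyte-like cells had the same order and pro/pre-B-like cells did not. Whether a replicate number stands for a batch was not tested. With the replicate number as a block, 5 tests passed between NZB and NZW, 6 between NZBWF1 and NZB, and 1 against the mean of the parents, the 7 main calls among them. The further tests are not named here, nor is the count over all genes with this block. Over the 9 settings that kept every mouse, calls over all genes ran from 1694 to 7068 between NZB and NZW. They ran from 711 to 3252 between NZBWF1 and NZB, from 204 to 1188 between NZBWF1 and NZW, and from 151 to 673 against the mean of the parents. Over all genes the 2692 calls between NZBWF1 and NZB ran from 1458 (without NZB replicate 2) to 2657 with 1 mouse left out, and were also fewer by over 1.5 times without NZBWF1 replicate 2, and the 747 between NZBWF1 and NZW ran from 470.0 (without NZW replicate 3) to 923. DESeq2 called 3965 tests on all genes between NZB and NZW in place of 6141, 1692 in place of 2692 between NZBWF1 and NZB, and 490.0 in place of 747 between NZBWF1 and NZW. Of the target genes DESeq2 called 26 in place of 41 between NZB and NZW and 14 in place of 26 between NZBWF1 and NZB, a count that ran from 17 (without NZBWF1 replicate 2) to 26 with 1 mouse left out. The choices without dividing cells, with cells of 2 classes kept, and with the shallower cells alone were added after the data were seen.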

Other observations

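In the 4 classes too small for a test, means are over mice with at least 10 cells. *Irf5* had 365 ± 112 CPM in nonclassical-monocyte-like cells (SD, n = 5 mice, 43 UMIs in all) and *Irf7* 17.1 ± 23.4 CPM there, from 2 UMIs. In cDC-like cells (n = 6 mice, 3 NZW and 3 NZBWF1 and no NZB) *Irf7* had 195 ± 130.0 CPM, *Irf5* 174 ± 78.8 CPM, *Stat2* 132 ± 114 CPM, and *Ifnar2* 205 ± 41.5 CPM. Macrophage-like cells (n = 3 mice, also without NZB) had 181 ± 95.4 CPM of *Irf7* and 115 ± 48.4 CPM of *Irf1*.

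*Ifnar1* in mature-B-like cells had 33.5, 11.7, and 53 CPM in NZB, 70.4, 79.8, and 71.7 CPM in NZW, and 84.3, 58.9, and 78.2 CPM in NZBWF1 (231 UMIs in all). NZB lay below every other mouse, and the test between NZB and NZW did not pass (-0.91, edgeR adjusted p = 0.179). *Irf9* in promyelocyte-like cells also did not pass between NZB and NZW (0.68, edgeR adjusted p = 0.0789).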
